A study of Mus musculus with 4 samples.

Results

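The genes described here are 10 feedback and target genes of the ERK pathway: the dual-specificity phosphatases Dusp4, Dusp5 and Dusp6, the Sprouty genes Spry1, Spry2 and Spry4, the Sprouty-related genes Spred1 and Spred2, and the ETS transcription factors Etv4 and Etv5. They were chosen by name, as classical ERK feedback inhibitors and Etv factors, from the 22524 genes counted in each library, and all 10 were found. RNA sequencing was done on 4 libraries of tdTomato-positive cells sorted by flow cytometry from pre-tumorigenic dermal hyperplasia of mouse skin. All mice carried NrasQ61K driven by the tyrosinase promoter (Tyr::NrasQ61K), a tamoxifen-inducible Cre under the same promoter (Tyr::CreERT2) and a Cre-dependent tdTomato reporter (R26R-LSL-tdTomato), and all received tamoxifen. The 2 libraries labelled Ezh2Y646N came from mice that also had the Cre-dependent allele ColA1-LSL-Ezh2Y646N, and the 2 labelled NrasQ61K are the comparison group. Neither the age of the mice nor whether the 2 libraries of a group came from separate animals is given in the sources used here. The p-values therefore rest on a spread between libraries that may be technical.

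Oncogenic Ras signals through Raf, Mek and Erk kinases. Active Erk switches on genes that then hold it back: Dusp phosphatases remove phosphate from Erk itself, Sprouty proteins block signalling between receptor and Raf, and Spred proteins bring the Ras inhibitor neurofibromin to the membrane. Etv4 and Etv5 carry the signal on as transcription factors, and in melanocytes and melanoma the RNA of several of these genes is read as a gauge of Erk output. Ezh2 deposits the repressive H3K27 methyl mark, and the group under study carries an additional, Cre-dependent allele for a mutant form of it. The comparison asks whether this RNA gauge differs when NrasQ61K cells also carry the mutant enzyme.

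The promoters of 4 of these genes are shown because they belong to the members at both ends of the range of fold changes (Dusp6, Spry1 and Spry2) and to the member whose level varied most between libraries of the same group (Dusp5). The sequences are from RefSeq, build GRCm38.p6, 5′ to 3′ on the gene's strand, from 250 bases before the RefSeq start to the base before the GENCODE M21 gene. Capitals mark matches to motifs of Erk-responsive factors. The regions are chr10:99262981-99263230 on the + strand for Dusp6, chr3:37639697-37639946 on the + strand for Spry1, chr14:105896820-105897069 on the - strand for Spry2 and chr19:53528895-53529108 on the + strand for Dusp5.
Dusp6: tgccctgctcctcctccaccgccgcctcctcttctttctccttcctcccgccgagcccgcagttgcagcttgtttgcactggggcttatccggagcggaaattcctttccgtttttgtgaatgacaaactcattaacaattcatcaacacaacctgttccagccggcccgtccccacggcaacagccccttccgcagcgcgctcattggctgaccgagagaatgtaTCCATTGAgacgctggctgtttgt
Spry1: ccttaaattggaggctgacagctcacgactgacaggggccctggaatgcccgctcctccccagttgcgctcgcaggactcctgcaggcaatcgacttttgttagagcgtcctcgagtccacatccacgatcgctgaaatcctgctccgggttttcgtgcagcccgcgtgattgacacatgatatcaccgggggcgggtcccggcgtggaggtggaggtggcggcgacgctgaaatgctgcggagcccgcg
Spry2: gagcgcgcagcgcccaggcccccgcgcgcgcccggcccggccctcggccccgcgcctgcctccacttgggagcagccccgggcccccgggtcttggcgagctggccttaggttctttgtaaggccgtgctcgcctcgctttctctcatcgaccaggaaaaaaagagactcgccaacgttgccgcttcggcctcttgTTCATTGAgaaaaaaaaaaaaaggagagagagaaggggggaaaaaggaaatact
Dusp5: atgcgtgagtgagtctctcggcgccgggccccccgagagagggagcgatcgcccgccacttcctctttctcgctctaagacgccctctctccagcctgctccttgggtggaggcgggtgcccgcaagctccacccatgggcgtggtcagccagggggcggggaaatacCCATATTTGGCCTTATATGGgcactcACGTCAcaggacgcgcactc

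Dusp5 has 2 adjoining serum response elements, the site of the Erk-responsive factor Srf and its Elk partners, which begin 82 and 72 bases before the RefSeq start. Of all 32851 RefSeq promoter windows of 250 bases, 1.47% hold this element. Dusp6 and Spry2 each hold 1 match to the capicua octamer TNAATGNA, 24 and 54 bases before the start, which 10.3% of windows hold. Capicua is the repressor that Erk removes from Etv genes. A cyclic AMP response element core, TGACGT, is in Dusp5 (56 bases before the start) and Spred2 (52 bases before it) and in 6.47% of windows. The ETS motif CCGGAAG (6.91% of windows) and the AP-1 motif TGANTCA (6.75%) matched none of the 8 promoters of the 7 members searched. Both strands were searched, no matches of different motifs overlapped, and the 250 bases leave out enhancers and introns. Spry1 had no match in this window.

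Levels are read counts scaled to a common depth (CPM), with library sizes adjusted by the trimmed mean of M-values. Fold changes are given on the log2 scale, positive where Ezh2Y646N was higher, from edgeR's quasi-likelihood test, with a standard error (SE), a 95% interval and a p adjusted over all 14265 genes tested. All 10 members passed the filter on low counts, with 204 to 2801 reads per library, so that counting error alone was 1.89% to 7% of a value. None of them passed an adjusted p of 0.05, in either direction, where 1.77% of all genes did (1.10% higher and 0.673% lower). At an unadjusted p under 0.05 there were 3 members, Dusp6, Spry1 and Spry2, against 14.3% of all genes. DESeq2 and limma voom also called 0 members.

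Dusp6 had the lowest p and the largest fold change of the members, with lower values in the libraries labelled Ezh2Y646N. It encodes the cytoplasmic phosphatase that acts on Erk1 and Erk2, and lies on GRCm38 chromosome 10, 99263231 to 99267489 (ENSMUSG00000019960). Its level was 67.4 and 67.5 CPM in Ezh2Y646N replicates 1 and 2, and 103 and 124 CPM in NrasQ61K replicates 1 and 2. Both Ezh2Y646N libraries were below both NrasQ61K libraries, and they lay close together. Group means were 67.5 ± 0.130 and 114 ± 14.7 CPM (SD, n = 2 libraries each). On the log2 scale the change was -0.75 (SE 0.22, interval -1.26 to -0.24), a level 1.69-fold lower, and the adjusted p was 0.151. It ranged from -0.88 to -0.57 when each library was left out in turn.

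The other Erk phosphatases had different patterns. Dusp4, a nuclear phosphatase that acts on Erk (chromosome 8, 34807297 to 34819894), was at 52.2 and 57.9 CPM in the Ezh2Y646N libraries and 42.0 and 44.8 CPM in the NrasQ61K libraries. Here the order was the opposite of that of Dusp6, again with no overlap between groups, at a log2 fold change of 0.34 (SE 0.22, interval -0.17 to 0.86, adjusted p = 0.578). Dusp5, a nuclear phosphatase specific for Erk (chromosome 19, 53529109 to 53542431), was at 19.3 and 25.3 CPM against 16.1 and 34.1 CPM. The 2 NrasQ61K libraries enclosed both Ezh2Y646N libraries, and the log2 fold change of -0.17 had the widest interval of the members (-1.06 to 0.71). It turned to 0.01 without Ezh2Y646N replicate 1 and to 0.52 without NrasQ61K replicate 2. The summed markers of cell dissociation stress, led by Jun and Atf3, also differed between those NrasQ61K libraries. The sums over 8 genes were 3235 and 4941 CPM, against 3027 and 3305 in the Ezh2Y646N libraries. Hspa1a and Hspa1b went the other way in NrasQ61K replicates 1 and 2, at 369 and 282 CPM and at 451 and 423 CPM. Of the 8, edgeR called 0 between groups, DESeq2 called 1 lower and none was at 0 in any library. Basal keratinocyte sums were 9871 and 23560 CPM in the NrasQ61K libraries. They enclosed the 13061 and 20178 CPM of the Ezh2Y646N libraries, which the stress sums did not. Suprabasal, macrophage, Schwann cell and melanocyte sums were also higher in NrasQ61K replicate 2 than in replicate 1. Hair, fibroblast and endothelial sums were lower. The part of any of these markers in the Dusp5 values was not tested. Dusp5 shares 547 exon bases with an annotated antisense gene, and because the strand setting of the counting is not given, reads of the pair cannot be told apart.

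Spry1 and Spry2 had higher values in both Ezh2Y646N libraries, and Spry4 did not. Sprouty proteins are induced by receptor tyrosine kinase signalling and dampen it upstream of Erk. Spry1 (ENSMUSG00000037211, chromosome 3, 37639947 to 37644598) was at 69.9 and 71.0 CPM in the Ezh2Y646N libraries and 42.0 and 51.6 CPM in the NrasQ61K libraries. Group means were 70.4 ± 0.783 and 46.8 ± 6.81 CPM (SD, n = 2 libraries each). The groups did not overlap, and the log2 fold change was 0.59 (SE 0.23, interval 0.06 to 1.12, adjusted p = 0.287), a level 1.51-fold higher. Spry1 shares 710 exon bases with Gm42922, an unclassified gene on the other strand. As for Dusp5, reads of this pair cannot be told apart, because the strand setting is not given.

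Spry2 (chromosome 14, 105891947 to 105896819), which binds Grb2 and Cbl, was at 51.1 and 48.4 CPM against 36.2 and 33.1 CPM. Its groups were again apart, with a log2 fold change of 0.52 (SE 0.22, interval 0.00 to 1.04, adjusted p = 0.349). Left-out libraries moved the fold change of Spry1 between 0.45 and 0.79 and that of Spry2 between 0.48 and 0.59. Spry4 (chromosome 18, 38586247 to 38601415) was the least abundant member, at 12.9 and 14.1 CPM against 16.3 and 13.7 CPM. The groups overlapped, and the log2 fold change of -0.15 (SE 0.29) had an interval from -0.82 to 0.51, so that a change as large as that of Spry2 in the lower direction would lie within it.

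The Spred genes were lower in both Ezh2Y646N libraries by small amounts. Spred1, the member that recruits neurofibromin to Ras and is lost in a human syndrome of pigmented skin spots, was the most abundant member in CPM (chromosome 2, 117121374 to 117182279). It was at 115 and 110 CPM in the Ezh2Y646N libraries and 139 and 134 CPM in the NrasQ61K libraries. The replicates of each group lay close together and the groups were apart, at a log2 fold change of -0.28 (SE 0.21, interval -0.76 to 0.20, adjusted p = 0.644). Spred2, its close relative (chromosome 11, 19924375 to 20024026), was at 65.7 and 74.0 CPM against 105 and 75.2 CPM. The groups were separated here by only the step from 74.0 to 75.2 CPM, and the log2 fold change of -0.37 (SE 0.25, interval -0.94 to 0.21, adjusted p = 0.602) became -0.55 when NrasQ61K replicate 2 was left out and -0.11 when NrasQ61K replicate 1 was.

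Etv4 and Etv5, the transcription factors that Erk activates and capicua represses, did not separate the groups. Etv4 (chromosome 11, 101769742 to 101785371) was at 32.0 and 30.04 CPM in the Ezh2Y646N libraries, between the 43.9 and 27.5 CPM of the NrasQ61K libraries. Etv5 (chromosome 16, 22381309 to 22439719) was at 39.2 and 31.8 CPM against 43.9 and 33.8 CPM. Their log2 fold changes were -0.20 (interval -0.87 to 0.46, adjusted p = 0.844) and -0.13 (interval -0.72 to 0.47, adjusted p = 0.895). Without NrasQ61K replicate 1 they were 0.17 and 0.07, and without Ezh2Y646N replicate 2 that of Etv5 was 0.01.

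**Figure D1:**
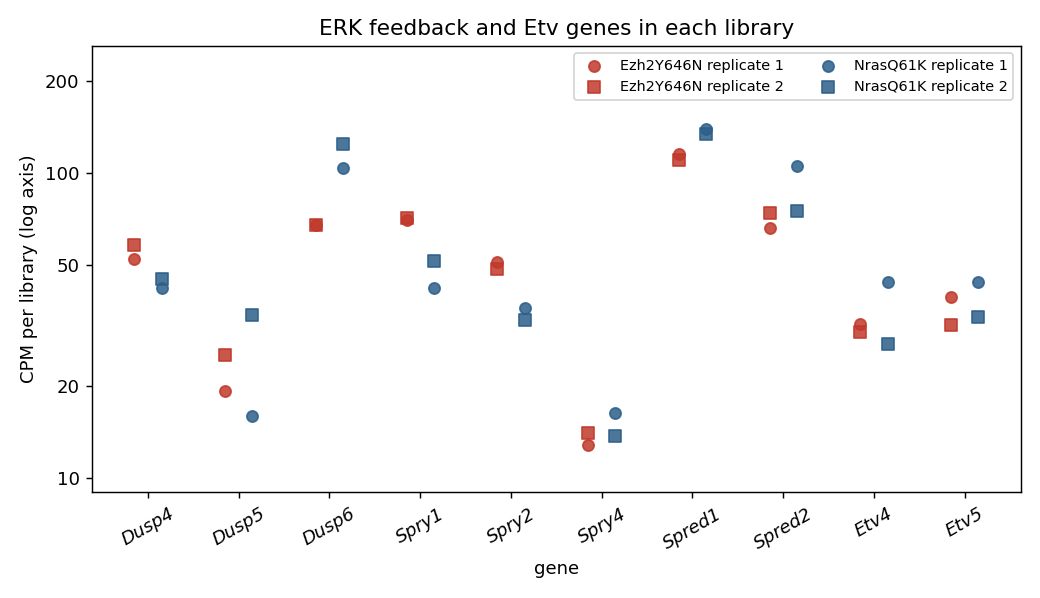
CPM of each of the 10 genes (x axis) in each library on a log axis (y axis), with Ezh2Y646N in red, NrasQ61K in blue, circles for replicate 1 and squares for replicate 2. Dusp6 is lower in both Ezh2Y646N libraries (67.4 and 67.5 against 103 and 124 CPM), while Spry1, Spry2 and Dusp4 are higher in both.

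**Figure D2:**
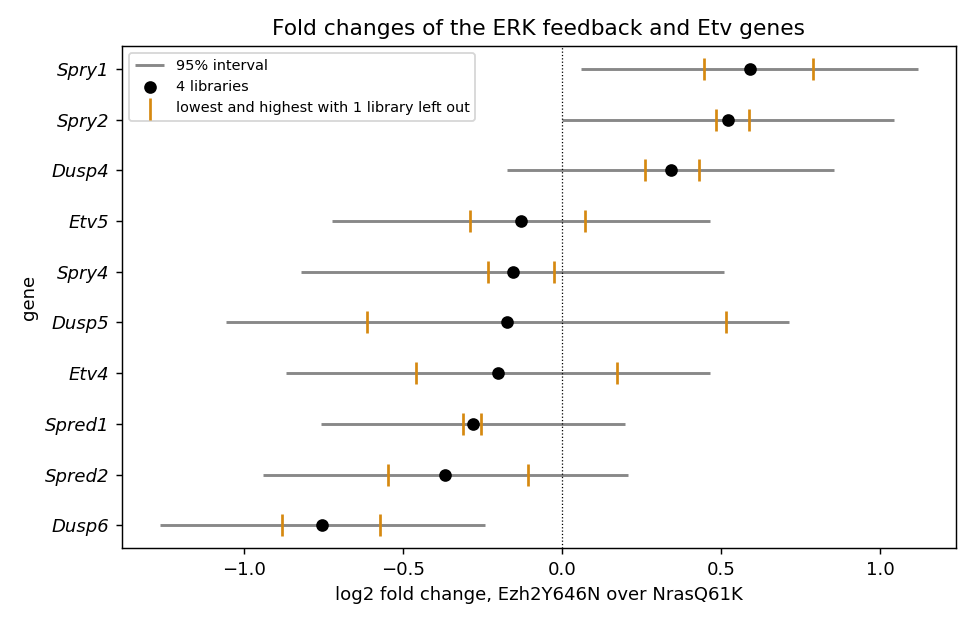
Log2 fold change of Ezh2Y646N over NrasQ61K (x axis) for each gene (y axis), with its 95% interval as a grey line and the lowest and highest values with 1 library left out as orange ticks. The intervals of Dusp6, Spry1 and Spry2 lie on 1 side of 0, though that of Spry2 starts at 0.0004. Those of the other 7 genes include 0, and for Dusp5, Etv4 and Etv5 the ticks lie on both sides of 0.

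As a set, the members had no common direction. Their log2 fold changes ran from -0.75 to 0.59, with 3 above 0 and 7 below, where 6562 of all genes tested were above and 7703 below. The members' median was -0.16 beside -0.04 over all genes tested. Without NrasQ61K replicate 1 the median was 0.02. In CPM the groups did not overlap for 3 members in the higher direction (Dusp4, Spry1 and Spry2), where 21.1% of all genes did the same, and for 3 in the lower direction (Dusp6, Spred1 and Spred2), where 23.1% did. Together that is 6 of 10, against 44.2% of all genes. The summed level of the 10 genes was 525 and 530 CPM in the Ezh2Y646N libraries and 588 and 572 CPM in the NrasQ61K libraries.

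Per kilobase of annotated exon, Dusp6 had the highest mean level over the 4 libraries (28.9 CPM per kb), followed by Spry2 (20.2), Spry1 (20.2), Spred1 (18.4), Dusp4 (18.0) and Spred2 (17.3), which lay close to each other. Etv4 (10.7), Dusp5 (9.59) and Etv5 (9.06) formed a lower tier, and Spry4 was last at 2.996 CPM per kb. The order at the top differed between groups: Dusp6 led in the NrasQ61K libraries at 36.3 CPM per kb, followed by Spred1 (20.2), Spred2 (19.5), Spry2 (16.6), Spry1 (16.1) and Dusp4 (15.8), while in the Ezh2Y646N libraries Spry1 (24.2), Spry2 (23.8), Dusp6 (21.5) and Dusp4 (20.1) were close together. No test was run on this order.

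The ratio of 2 genes within a library does not depend on how libraries are scaled. The ratio of Spry1 to Dusp6 was 1.04 and 1.05 in the Ezh2Y646N libraries and 0.406 and 0.416 in the NrasQ61K libraries, a 2.54-fold difference between groups. Replicates agreed closely here, and of the 45 ratios between members this had the widest gap between groups on the log2 scale (1.32). In all, 26 of the 45 ratios did not overlap between groups, against 47.4% of all pairs of tested genes with a count in every library. The ratio of Spry1 to Dusp6 was chosen after its values were seen, the 45 ratios share genes, and with 2 libraries against 2 the exact 2-sided permutation test cannot go below 0.333.

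**Figure D3:**
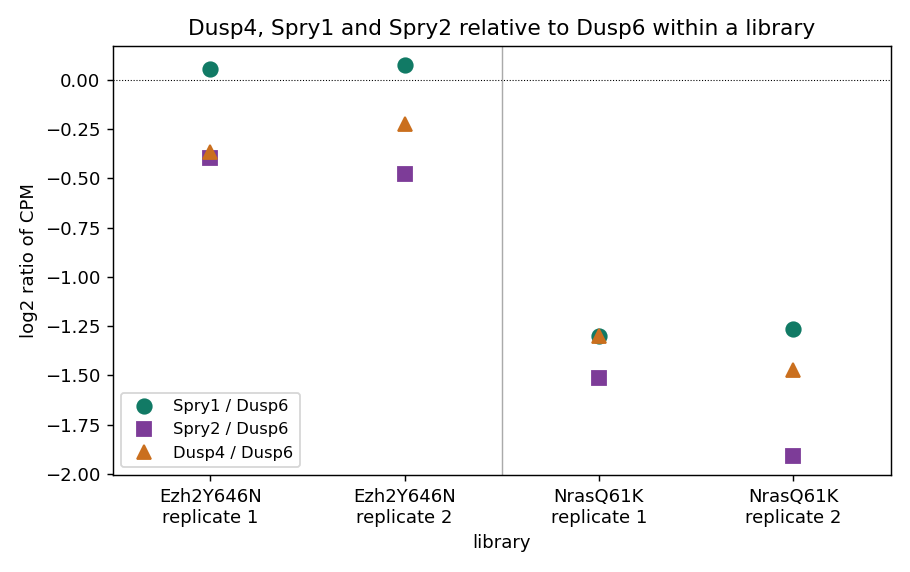
Log2 ratio of the CPM of Spry1, Spry2 and Dusp4 to that of Dusp6 (y axis) in each of the 4 libraries (x axis), 1 point per gene and library. All 3 ratios are higher in both Ezh2Y646N libraries than in either NrasQ61K library, and Spry1 to Dusp6 goes from near 0 to -1.30 and -1.27.

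Among the paralogs of the members 1 of 9 tested genes fell and 0 rose (0.673% and 1.10% of all genes did). The paralog that fell was Dusp10, a phosphatase that acts mainly on the stress kinases Jnk and p38 (chromosome 1, 184013302 to 184075636). It was at 12.1 and 15.8 CPM in the Ezh2Y646N libraries and 44.4 and 43.4 CPM in the NrasQ61K libraries. The groups lay far apart, at -1.65 on the log2 scale (SE 0.26, interval -2.25 to -1.05, adjusted p = 0.0323), and the call was lost without Ezh2Y646N replicate 1 (log2 fold change -1.47, adjusted p = 0.148). Dusp2, an inducible nuclear phosphatase, was at 1.38 and 2.49 CPM against 7.65 and 7.10 CPM, a log2 fold change of -1.93 that did not pass (adjusted p = 0.104). DESeq2 gave Dusp2 an adjusted p of 0.0255. Dusp8, another phosphatase of the stress kinases, had a log2 fold change of -0.64 and the X-linked Dusp9 one of -2.03 at 4.04 CPM or less, and neither passed. The immediate-early phosphatase Dusp1 (-0.12), the cytoplasmic Erk phosphatase Dusp7 (0.05), Dusp16 (-0.01), Spred3 (0.19) and Etv1 (-0.55) did not pass either. Spry3, at 0.207 CPM or less, was too low to be tested.

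Of 19 other genes that Erk signalling induces, 1 rose and 0 fell (1.10% and 0.673% of all genes did). Ereg, which encodes the EGF receptor ligand epiregulin (chromosome 5, 91074622 to 91093646), was at 35.3 and 27.4 CPM in the Ezh2Y646N libraries and 1.45 and 3.74 CPM in the NrasQ61K libraries. The difference was 3.57 on the log2 scale (SE 0.46, interval 2.49 to 4.65, adjusted p = 0.0268), and it stayed between 3.06 and 4.47 when single libraries were left out. In the rest of that list Epha2, an ephrin receptor, had a log2 fold change of -0.84 (adjusted p = 0.201). Leaving out NrasQ61K replicate 1 gave Epha2 a value of -0.46, and leaving out NrasQ61K replicate 2 gave -1.09, past the threshold (adjusted p = 0.0151), as it was with no filter on low counts (0.0341). The immediate-early genes Fos and Egr1 were at -0.0008 and -0.55. The list had a median of -0.22, with 15 of 19 genes below 0. Over all genes tested the median was -0.04, with 7703 of 14265 below 0.

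ETS factors and capicua partners gave no call in 10 genes in edgeR, DESeq2 or voom, with 1 unadjusted p under 0.05 and a median of -0.27. Elk3, a partner of Srf, was at 15.5 and 15.5 CPM against 28.1 and 30.6 CPM (log2 fold change -0.92, adjusted p = 0.131). The repressors Erf and Cic had log2 fold changes of -0.46 and -0.38, and Etv3 and Ets2 of 0.36 and 0.15. None of the 18 cascade genes on which the members act was called by edgeR or voom either, with 1 unadjusted p under 0.05 and a median of -0.07. Braf, the kinase between Ras and Mek, was lower in both Ezh2Y646N libraries (71.2 and 59.3 CPM against 184 and 98.3, log2 fold change -1.12, adjusted p = 0.147). DESeq2 called it (adjusted p = 0.0237), as did edgeR without NrasQ61K replicate 2 (log2 fold change -1.46, adjusted p = 0.00371). Without NrasQ61K replicate 1, the library at 184 CPM, the fold change of Braf was -0.59 (adjusted p = 0.365). Egfr and Kit, receptors upstream of Ras, had log2 fold changes of -0.44 and -0.35, and Fgfr2 one of 0.07. Over the 4 lists together, 52 genes were tested, 1 rose and 1 fell (1.10% and 0.673% of all genes did). An unadjusted p under 0.05 was found for 7 (14.3% of all genes). The groups did not overlap in 3 genes upward and 17 downward (21.1% and 23.1% of all genes).

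**Figure D4:**
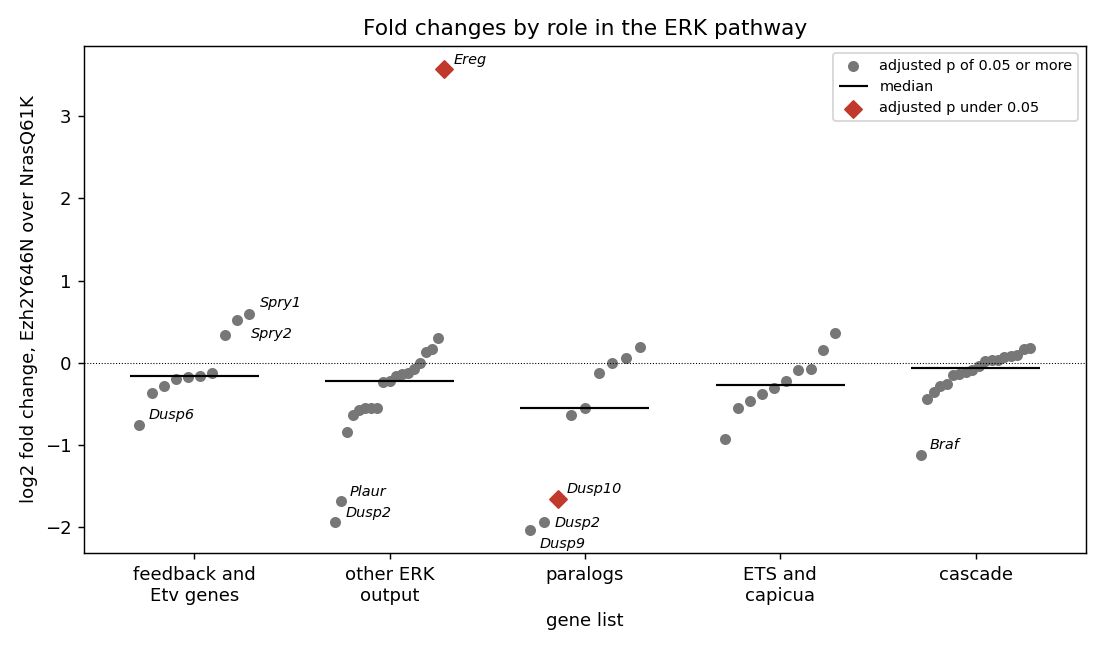
Log2 fold change of Ezh2Y646N over NrasQ61K (y axis) for the tested genes of each list (x axis), 1 point per gene, with red diamonds for an adjusted p under 0.05 and bars for the median. Ereg (3.57) and Dusp10 (-1.65) are the 2 genes past the threshold, and the 10 feedback and Etv genes lie between -0.75 and 0.59.

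For Dusp6, the protein-coding genes with the most similar pattern over the 4 libraries were Plk2, Sulf2 and Chsy3. Plk2, a polo-like kinase, was at 88.9 and 86.3 CPM in the Ezh2Y646N libraries and 132 and 163 CPM in the NrasQ61K libraries. The measure was the root mean square difference of log2 CPM (1 added) after centring each gene, over 10010 genes with a mean of at least 10 CPM, and it was 0.0223, 0.0261 and 0.0325. For Spry1 the nearest were Pygb, Eif2ak2 and Mef2a (0.0169, 0.0187 and 0.0251). With only 4 libraries the named genes were not alone. Of the 10010 genes, 45 lay within 0.1 of Dusp6 and 159 within 0.1 of Spry1, a looser limit than the values above.

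Total counts were 14808801 to 20600297 per library. Ezh2 RNA (log2 fold change -0.11), Nras (-0.07) and Tyr (0.44) did not differ past the threshold, and counts per gene do not tell mutant from endogenous RNA, which leaves the labels unchecked by these genes. Melanocyte markers, led by Dct and Tyrp1, were present in all libraries and summed to 3857 and 3963 CPM in Ezh2Y646N and 2639 and 3447 CPM in NrasQ61K, with 0 of 9 called and 0 at an unadjusted p under 0.05. Markers of other skin cells were also present, and the sums of some of these lists did not overlap between groups. The 7 suprabasal keratinocyte markers (Krt10 and Krt1 the highest) summed to 39969 and 28202 CPM against 3141 and 8237. Of these, 3 were called higher in edgeR, 7 in DESeq2 and 6 in voom. The 10 hair shaft and inner root sheath markers (Tchh and Gata3) summed to 1064 and 847 CPM against 3496 and 1871. Of these, 4 were called lower in edgeR and 5 in voom, and DESeq2 called 9 lower and 1 higher. Gata3 was the exception among them, at 461 and 538 against 202 and 252 CPM (log2 fold change 1.14), while the other 9 were below 0. Fibroblast markers (Col1a1 and Col3a1) summed to 817 and 2028 CPM against 4047 and 2369, with 2 of 9 called lower in edgeR, 4 in DESeq2 and 0 in voom. Endothelial markers (Plvap and Pecam1) summed to 158 and 95.7 against 247 and 232, with 0 of 8 called (3 at an unadjusted p under 0.05, 1 lower in DESeq2). Macrophage and dendritic cell markers (Cd74 and Lyz2) summed to 71.8 and 152 CPM against 159 and 419, with 0 of 8 called (5 at an unadjusted p under 0.05, 2 lower in DESeq2). Schwann cell markers (Egr2 and Mbp) summed to 893 and 391 against 250 and 411, with 1 of 7 called higher in edgeR, 3 in DESeq2 and 0 in voom. These Schwann cell sums overlapped between groups, and Egr2 went against the other 6 markers, at a log2 fold change of -0.80. The 6 basal keratinocyte markers (Krt5 and Krt14) summed to 13061 and 20178 CPM against 9871 and 23560, which overlapped, with 0 called and 0 at an unadjusted p under 0.05. No marker was at 0 in any library. Epidermis, hair follicle and dermis also express Dusp, Sprouty and Spred genes. The part of these cells in the values of the members, of Ereg and of Dusp10 was not tested, and in such bulk samples fewer cells of a type and less RNA per cell cannot be told apart.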

How the data were processed

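Per the labels' protocols, RNA from sorted cells was purified on small-volume columns, depleted of ribosomal RNA and sequenced from a stranded low-input library. The authors deposited raw read counts per Ensembl gene, 1 file per library, with no normalization. Tools named in the submitters' processing notes are STAR 2.5.4b, featureCounts, Trimmomatic, bcl2fastq 2.19 and edgeR, with the mouse build GRCm38. No source used here gives the annotation release, the strand setting or a gene filter. Symbols, positions and exon lengths came from GENCODE M21 on GRCm38, which held 22291 of the identifiers and lacked 233. Coordinates count from 1.

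The test was edgeR 4.0.16 under R 4.3.3: filterByExpr (minimum 10 counts, 15 in total), TMM scaling, a robust quasi-likelihood fit of the whole table with group as its term, 2 residual degrees of freedom and Benjamini-Hochberg adjustment over all genes tested. The script was tested on simulated data. The SE is the fold change divided by the root of F, and the 95% interval from the t distribution with the fit's total degrees of freedom. Alternatives were RLE scaling, keratin genes left out, no filter, DESeq2 1.42.0, limma 3.58.1 (voom), a fit that was not robust, the replicate number as a block, and each library left out. The labels' numbers were not used as a block in the results reported.

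The members and gene lists were chosen with earlier results of these data known. All 10 members and all 10 paralogs were named. From each other pathway list, the 3 genes with the smallest p and the 2 of highest mean CPM were named, and from each marker list the 2 of highest mean CPM. Ezh2, Nras and Tyr were named as label checks, and 3 genes each as most like Dusp6 and Spry1. Of the markers listed, Flg was not found in the files by its symbol. RefSeq promoters were searched for 7 of the 10 members, which left out Dusp4, Etv4 and Spry4.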

Additional observations from a re-analysis of the deposited data

How the results depend on the processing

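Over 11 alternatives, Dusp4, Dusp6, Spry1, Spry2, Spry4, Spred1 and Spred2 kept the direction of their log2 fold change. Leave-one-out values of the other members crossed 0: Dusp5 ranged from -0.61 to 0.52 (0.01 without Ezh2Y646N replicate 1), Etv4 from -0.46 to 0.17, and Etv5 from -0.29 to 0.0709 (0.01 without Ezh2Y646N replicate 2). The only call of a member came with the replicate number as a block, where 1 member was lower, Dusp6 (log2 fold change -0.75, adjusted p = 0.0349, against 0.0724 to 0.556 in the other 10 alternatives). The labels do not say that equal numbers mark shared material, and the deviations of same-numbered libraries correlated at 0.141 across genes, so the block rests on a number only. With that block, 5 genes of the pathway lists were lower (Dusp10, Dusp2, Elk3, Braf and Epha2), and 710 of all genes were higher and 627 lower, against 157 and 96 without it. DESeq2 called 3 pathway genes lower (Dusp10, Dusp2 and Braf), and 505 and 378 of all genes; with no filter on low counts the figures were 5 (those called with the block), 686 and 616. With 1 library left out, pathway genes called lower ranged from 0 to 3, all genes called higher from 49 to 730 and lower from 43 to 393, and the members' median from -0.25 to 0.0223. The lowest counts came without Ezh2Y646N replicate 1 and the highest without NrasQ61K replicate 2; a group left with 1 library is assumed to vary like the other. The cause of these shifts was not tested. Ereg was called in all 11 alternatives, and Dusp10 in all except without Ezh2Y646N replicate 1.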

Other observations

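Some immediate-early genes were apart in the 2 NrasQ61K libraries. Egr1, an immediate transcriptional target of Erk and Elk factors, was at 399 and 1088 CPM in NrasQ61K replicates 1 and 2. It was apart in the Ezh2Y646N libraries too, at 344 and 670 CPM, and the NrasQ61K libraries did not enclose these. Fos was at 961 and 1779 CPM in the NrasQ61K libraries, with 1417 and 1321 CPM between them in the Ezh2Y646N libraries. Dusp1 and the stress factor Atf3 had the same shape as Fos, at 134 and 353 CPM and at 292 and 713 CPM in the NrasQ61K libraries. In the Ezh2Y646N libraries Dusp1 was at 215 and 232 CPM and Atf3 at 466 and 460 CPM. Dusp5 shared this order, whereas Dusp4, Dusp6, Spry1, Spry2, Spred1 and Spred2 kept the groups apart. The order was not limited to immediate-early genes. Krt5 was at 3750 and 8762 CPM in the NrasQ61K libraries, around 4932 and 7466 CPM in the Ezh2Y646N libraries. Krt14 and Mapk3 also had it, and its share over all genes was not counted. The choice of these genes followed a look at their values, and no test was run on the pattern.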
